A study of Rattus norvegicus with 12 samples.

Results

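The striatal transcriptome of rats that received both L-DOPA and subthalamic stimulation was set against that of rats left untreated after the same lesion. The comparison took the 3 arrays of the DOPA/HFS group and the 3 arrays of the 6-OHDA group, 6 of the 12 arrays in the series, and no array of the groups given L-DOPA or stimulation alone. All rats were male and carried a unilateral lesion of the nigrostriatal dopamine pathway, made by injecting 9 µg of the toxin 6-hydroxydopamine (6-OHDA) into the left substantia nigra pars compacta. The 6-OHDA group had the lesion and no later treatment. The DOPA/HFS group was given 2 injections a day of 25 mg/kg L-DOPA with 12.5 mg/kg benserazide, an inhibitor of peripheral L-DOPA breakdown, for 19 days from day 14 after the lesion. During the last 5 of these days the subthalamic nucleus on the lesioned side was stimulated continuously through 1 implanted electrode (STN-HFS; 130 Hz, 80 µs, 60 µA). The last L-DOPA injection came 12 h before killing, and stimulation was turned off immediately before it. Rats were killed on day 33, and the dorsal striatum was punched and its RNA hybridised to 1-colour rat whole-genome arrays. The methods give 3 rats to each group and 1 array to each sample, so each array stands for 1 rat, whose striatal punches were pooled. Since L-DOPA, the electrode and the current came together, their parts in any difference cannot be told apart here.

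The striatum is the main input nucleus of the basal ganglia, and nearly all of its neurons are GABAergic projection neurons. Those of the direct pathway carry D1 dopamine receptors with the peptides dynorphin and substance P, and those of the indirect pathway carry D2 and adenosine receptors with enkephalin. After loss of dopamine, pulsatile L-DOPA can induce dyskinesia, which is known for heightened D1 signalling and immediate early gene and opioid peptide expression in direct pathway neurons. The comparison asks what this tissue looked like after the drug and the stimulation had been combined.

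Each value below is the log2 of the array intensity of a gene after quantile normalisation among the 6 arrays, and each difference is DOPA/HFS minus 6-OHDA on that scale, as a mean over 3 pairs of samples with the same number ± its standard error. The threshold used here was an adjusted p below 0.1 (Benjamini-Hochberg) together with the fold limits of the study's methods, over 1.2 or under 0.8. It was reached by none of the 19948 genes tested with limma (0%), and the lowest adjusted p was 0.216. The members of each gene list were therefore read at an unadjusted p under 0.05, as a description. At that level 661 genes passed (3.31%), 168 of them higher (0.842%) and 493 lower (2.47%) in DOPA/HFS. Higher genes made up 25.4% of these, and 4.45% in the authors' deposited normalised table, where 31 were higher and 666 lower. In simulated data 5.23% of unchanged genes passed the same level, more than the 3.31% here. The simulation had independent noise and no array that stood apart, so it cannot say what no change would give on these arrays. The shares over all genes set beside the lists below are a background and not rates of real change. Of 17990 genes measured on every array, 485 did not overlap between groups with a fold past the same limits (2.7%), 188 lying above (1.05%) and 297 below (1.65%) the 6-OHDA range. The median difference over all genes was -0.01. For a single gene, the exact permutation test of 3 against 3 arrays cannot go below 0.1, so no single gene could reach a permutation p of 0.05.

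**Figure D1:**
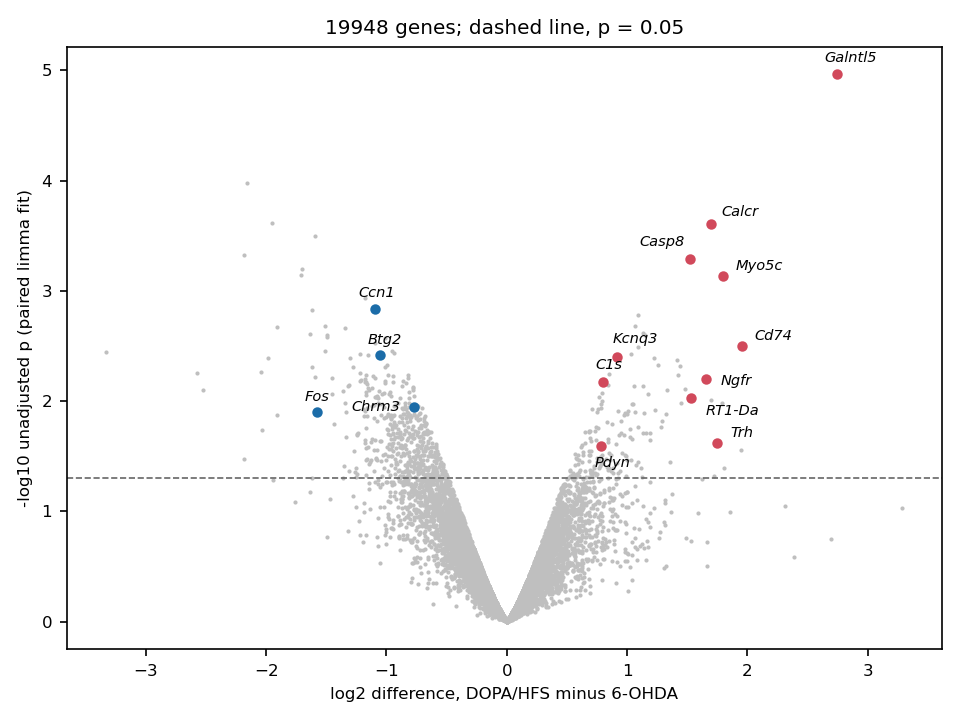
Log2 difference between DOPA/HFS and 6-OHDA (x axis) against -log10 of the unadjusted p of the paired limma fit (y axis) for 19948 genes, each a point, with 15 genes of the text in colour. Galntl5 stood farthest up, at a difference of 2.74, and no gene passed the adjusted threshold.

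Several arrays stood apart from the rest of their group. The share of spots well above background was 53.8 to 58.9% in the 6-OHDA arrays and 60 to 62.8% in the DOPA/HFS arrays, with no overlap. Of the 133 higher genes with a p under 0.05 and a value on all 6 arrays, 95 had their lowest value on the array of 6-OHDA 2, and of the 393 lower genes 318 had their highest value there. Without replicate 2 there were 198 higher and 170 lower genes at p under 0.05. On the array of DOPA/HFS 3, 4175 spots carried an outlier mark, against 3 to 25 on the others, and 1958 genes were fitted on 2 pairs only. The pairs also did not move together: across genes, which are not independent replicates, the differences of pairs 1 and 3 correlated at r = -0.374, those of pairs 1 and 2 at 0.137, and those of pairs 2 and 3 at -0.0693. The genes lower in DOPA/HFS were mostly transcripts without a gene symbol, 415 of 493 (84.2%), against 45.6% of all genes tested. Among the 10860 genes with a symbol, 109 were higher and 78 lower.

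The dissection held striatum on every array. Penk, the precursor of enkephalin, stood at 16.79, 16.22 and 16.83 in 6-OHDA and at 16.45, 16.51 and 16.89 in DOPA/HFS. Adora2a, an adenosine receptor of the indirect pathway, stood at 15.45, 15.38 and 15.53 and 15.42, 15.24 and 15.33. Th, which encodes tyrosine hydroxylase, was near background at 5.33, 4.39 and 5.35 in 6-OHDA and 5.56, 5.53 and 6.07 in DOPA/HFS. It was well above background on 1 of 3 and 3 of 3 arrays. The DOPA/HFS arrays were all above the 6-OHDA range for Th, a difference of 0.69 ± 0.25 (unadjusted p = 0.0308), of which pair 2, with the low 6-OHDA 2 array, gave the most. Without that pair the difference was 0.47 (unadjusted p = 0.218).

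Immediate early genes, which neurons transcribe within minutes of synaptic or receptor activity and which serve as markers of recent activation, had more members lower than higher. Of 31 tested, 8 were lower and 0 higher at p under 0.05 (25.8%, against 3.31% over all genes). Of the 31, 14 were lower in all 3 pairs (9.47% over all genes). The list's median difference was -0.27, against -0.01 over all genes. On all 3 DOPA/HFS arrays 8 members lay below the 6-OHDA range past the fold limit, with Egr1 and Egr4 in place of Ccn1 and Nr4a2 (1.65% over all genes). None passed the adjusted threshold. The 8 at p under 0.05 were Fos, Nr4a2, Ccn1, Btg2, Dusp1, Ier2, Arc and Egr2. These levels were read 12 h after the last L-DOPA injection, not within minutes of one. Stimulation, in contrast, ran until immediately before killing. The list was chosen with results of these arrays known, so its count is a description.

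Before their values, the promoters are shown of 4 of these genes, since immediate early genes are classic targets of the transcription factors CREB and SRF, which couple calcium and cyclic AMP signals to transcription. Each sequence is the 250 bases before the RefSeq start on GRCr8, read 5′ to 3′ along the gene. Capitals mark TGACG on either strand, the core of the CREB site, its full palindrome TGACGTCA where present, and the CArG box of SRF. The 4 shown are those with the palindrome or the CArG box. Ccn1 and Nr4a2 had neither, and for Fos and Arc no promoter sequence was at hand. The stretches are chr13:48087691-48087940 (minus strand) for Btg2, chr10:17184603-17184852 (plus strand) for Dusp1, chr19:40399123-40399372 (plus strand) for Ier2 and chr20:21054442-21054691 (minus strand) for Egr2.
Btg2: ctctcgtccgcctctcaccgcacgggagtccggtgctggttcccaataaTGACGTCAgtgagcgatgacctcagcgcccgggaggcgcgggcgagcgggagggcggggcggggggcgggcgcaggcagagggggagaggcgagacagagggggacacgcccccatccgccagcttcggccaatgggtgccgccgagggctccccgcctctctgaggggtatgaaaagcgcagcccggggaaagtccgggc
Dusp1: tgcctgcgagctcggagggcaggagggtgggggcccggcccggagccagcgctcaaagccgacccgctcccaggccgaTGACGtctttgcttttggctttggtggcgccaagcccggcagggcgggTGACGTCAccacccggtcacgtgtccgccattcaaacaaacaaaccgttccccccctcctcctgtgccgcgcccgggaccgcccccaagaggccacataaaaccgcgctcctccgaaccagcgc
Ier2: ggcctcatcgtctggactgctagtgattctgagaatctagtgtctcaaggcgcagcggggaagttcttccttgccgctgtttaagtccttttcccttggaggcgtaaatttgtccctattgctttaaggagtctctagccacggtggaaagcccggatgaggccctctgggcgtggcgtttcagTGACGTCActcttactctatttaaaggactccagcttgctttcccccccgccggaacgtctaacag
Egr2: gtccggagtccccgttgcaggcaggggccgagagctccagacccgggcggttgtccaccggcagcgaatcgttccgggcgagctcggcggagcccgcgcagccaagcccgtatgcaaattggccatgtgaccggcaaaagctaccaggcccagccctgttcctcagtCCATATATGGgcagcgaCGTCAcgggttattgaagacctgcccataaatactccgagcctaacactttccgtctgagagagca
The palindrome was in the promoters of Btg2, Dusp1 and Ier2, 3 of the 6 lower genes that the table holds, in 1 of 16 other immediate early genes tested, and in 1.59% of all 33469 promoters of this length. TGACG, which the palindrome contains on both strands, was in 6 of the 6, in 8 of the 16 others and in 18.2% of all. The CArG box was in 1 of the 6, Egr2, in 1 of the 16 and in 1.5% of all. A match describes the letters and not a used site.

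Fos, the AP-1 subunit most used as an activity marker, stood at 8.08, 7.94 and 9.87 in 6-OHDA and at 7.07, 7.22 and 6.86 in DOPA/HFS. The groups did not overlap, the third 6-OHDA array was far above the other two, and the DOPA/HFS arrays lay close together. The difference was -1.58 ± 0.45 (n = 3 pairs, 2.99-fold lower, unadjusted p = 0.0125). Without pair 3 it was -0.87 (unadjusted p = 0.0156).

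Btg2, an antiproliferative gene induced by activity and p53, stood at 9.60, 9.97 and 10.63 against 8.59, 9.27 and 9.17, again without overlap. Its difference was -1.06 ± 0.23 (2.08-fold lower, unadjusted p = 0.00379) and it was lower in 3 of 3 pairs. Dusp1, a phosphatase that switches off MAP kinases, stood at 10.40, 10.28 and 11.68 against 9.52, 9.85 and 9.86, without overlap, a difference of -1.05 ± 0.31 (unadjusted p = 0.0132). Ccn1, a secreted matricellular protein, overlapped between the groups and shifted from pair to pair, at 6.48, 7.31 and 7.83 against 5.43, 6.08 and 6.83. Within pairs it was the steadiest of the list, with differences of -1.05, -1.24 and -1.002. The mean was -1.10 ± 0.20 (unadjusted p = 0.00147, and 0.043 without the pairing).

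Nr4a2, an orphan nuclear receptor of the NR4A family, had the second largest mean difference of the list, -1.18 ± 0.29 (unadjusted p = 0.00668, and 0.0562 without the pairing). Its groups overlapped and the largest step was in pair 2. Ier2, a nuclear protein of the early response, stood at 10.62, 11.05 and 12.23 against 10.52, 10.33 and 10.57. The groups did not overlap, but pair 1 moved by only -0.10, the mean was -0.83 (unadjusted p = 0.0426), and without pair 3 it was -0.41 (unadjusted p = 0.185). Arc, a synaptic cytoskeletal regulator, differed by -0.72 (unadjusted p = 0.0267) and Egr2, a zinc finger factor, by -0.61 (unadjusted p = 0.0261), both without overlap.

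On 7 of these 8 genes the highest of the 6 values was that of 6-OHDA 3, so the height of the untreated range rested partly on 1 array. The count nevertheless was 6 without replicate 3, 6 without replicate 1 and 7 without replicate 2. It was also 6 without the pairing. With single arrays left out and no pairing it was 3 without DOPA/HFS 1, 4 without DOPA/HFS 3 and 3 without 6-OHDA 2.

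Among the other members, Egr1 stood at 13.02, 13.31 and 13.06 against 12.38, 12.71 and 12.82, below the 6-OHDA range on all 3 arrays, with a difference of -0.49 that missed the level (unadjusted p = 0.0568). Egr4 likewise did not overlap, at -0.57 (unadjusted p = 0.0597). Junb, a partner of Fos in AP-1, differed by -0.49 (unadjusted p = 0.0892) with overlap. Nptx2, a secreted pentraxin that clusters AMPA receptors, was the 1 member higher in all 3 pairs (6.85% over all genes), by 0.39 (unadjusted p = 0.104). The MAP kinase cascade, which relays D1 and glutamate receptor signals to these genes, held 0 of 24 members past the level in either direction. Mapk3, which encodes ERK1, stood at 9.74, 9.65 and 10.24 against 10.17, 9.14 and 9.74, with overlap.

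**Figure D2:**
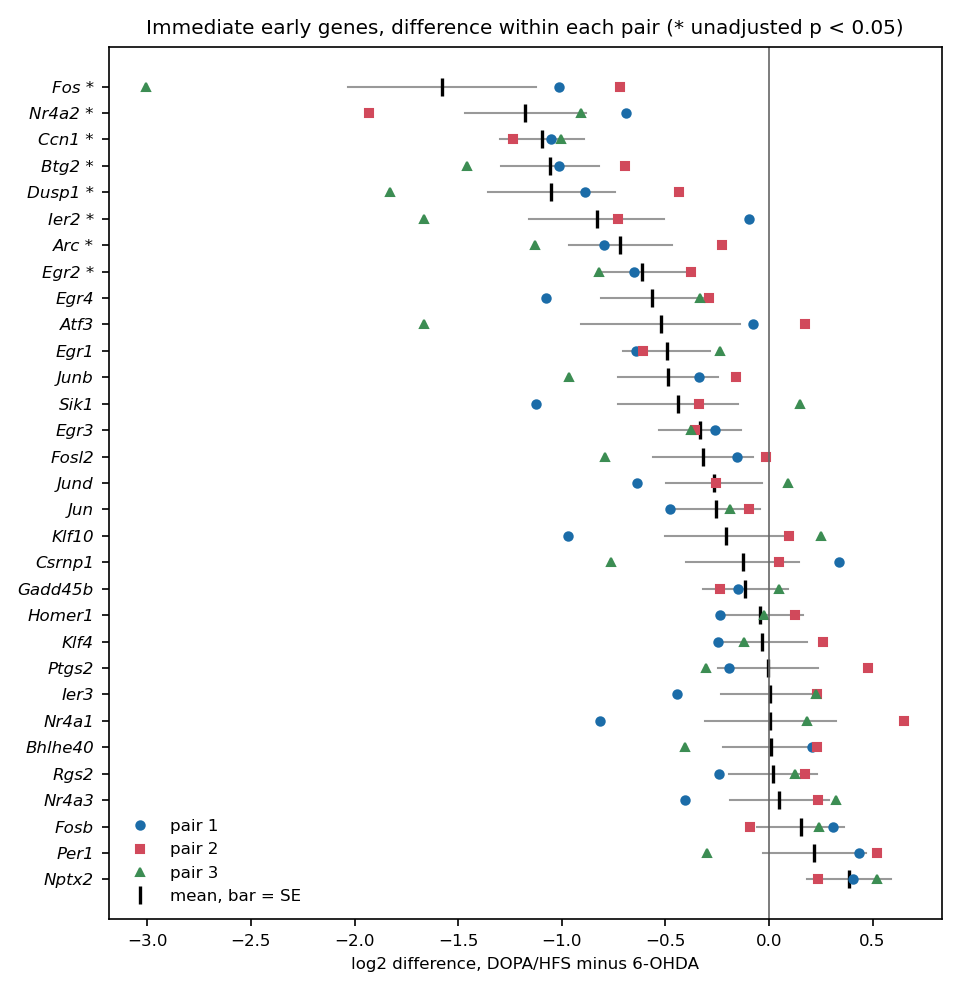
Log2 difference DOPA/HFS minus 6-OHDA (x axis) for the 31 immediate early genes tested (y axis), with 1 point per pair of samples, the mean as a black tick and its standard error as a grey bar, and a star for an unadjusted p under 0.05. The 8 starred genes all lie left of 0 in every pair, with Fos at -3.004 in pair 3.

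Genes of antigen presentation stood at the other end of the lists. MHC class II molecules display peptides on microglia and infiltrating immune cells, and the invariant chain Cd74 guides their assembly. Of the 6 genes of this list tested (10 were on the array), 2 were higher and 0 lower at p under 0.05 (33.3%, against 3.31% over all genes). All 6 had a mean above 0, and the median difference was 0.55. Cd74 stood at 6.01, 5.85 and 6.83 in 6-OHDA and at 8.66, 8.42 and 7.49 in DOPA/HFS. Every DOPA/HFS array was above every 6-OHDA array, the first 2 pairs by far more than the third, and the difference was 1.96 ± 0.42 (3.88-fold higher, unadjusted p = 0.00316). RT1-Da, the alpha chain of a rat class II molecule, stood at 5.28, 4.23 and 5.14 against 6.27, 7.03 and 5.95, well above background on 1 of 3 and 3 of 3 arrays, a difference of 1.53 ± 0.41 (unadjusted p = 0.00943) that was 0.89 without pair 2 (unadjusted p = 0.0248). The beta chain RT1-Db1, with no value on DOPA/HFS 3, stood at 5.83, 6.38 and 6.603 against 6.98 and 6.80 and missed the level (unadjusted p = 0.051). The filter on dim probes kept genes well above background on enough arrays of either group, and RT1-Da met it mainly through DOPA/HFS arrays. More spots were well above background on those arrays, so the filter can favour dim members that are higher there. The 33.3% and the 6 means above 0 are therefore a description. The median of the list also stayed above 0 without this filter. In such bulk tissue more cells of a type and more RNA per cell cannot be told apart.

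Complement genes, whose products tag synapses and debris for removal, were higher for 3 of 18 members tested and lower for 0 (16.7%, against 3.31% over all genes). C1s, a protease of the first complement complex, stood at 7.07, 7.30 and 7.47 against 7.96, 8.12 and 8.17. The groups did not overlap, the arrays within each group lay close together, and all 3 pairs gave nearly the same step, a mean of 0.80 ± 0.20 (1.74-fold higher, unadjusted p = 0.00667). C1r, its partner protease, stood at 7.26, 7.24 and 7.66 against 7.85, 8.05 and 8.02, also without overlap, and differed by 0.59 (unadjusted p = 0.0306). C3, the central component, differed by 0.93 (unadjusted p = 0.0451), but its groups overlapped and pair 3 moved by -0.16. C8b, a component of the membrane attack complex outside the list and named after its values were seen, was lower at 5.66, 5.65 and 5.42 against 4.76, 4.50 and 5.25 (difference -0.74, unadjusted p = 0.0285). In the deposited table of the study's own normalised values, and with outlier spots kept, 0 complement genes were higher at p under 0.05.

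In the wider glial and immune lists, none of 15 microglial markers, none of 13 astrocyte markers and none of 29 interferon response genes had a p under 0.05 in either direction, and their medians were 0.05, 0.14 and -0.01. Among 25 chemokines and interleukins tested, Cxcl10, an interferon-induced chemokine, was the 1 at that level (4%, against 3.31% over all genes). Cxcl10 was lower, at 6.02, 5.53 and 4.38 against 3.03, 5.03 and 3.94 with overlap (difference -1.31, unadjusted p = 0.0432). It was well above background on 2 of 3 arrays in 6-OHDA and on 1 of 3 in DOPA/HFS.

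Of 31 neuropeptide and processing genes tested, 2 were higher and 0 lower at p under 0.05 (6.45%, against 3.31% over all genes). In both the difference came from 2 of the 3 DOPA/HFS samples. Pdyn, the dynorphin precursor of the direct pathway, stood at 14.57, 14.87 and 14.78 in 6-OHDA and at 14.72, 15.95 and 15.88 in DOPA/HFS. Samples 2 and 3 were above all 6-OHDA samples and exceeded their pair partners by 1.08 and 1.11, while DOPA/HFS 1 lay within their range. The mean difference was 0.78 ± 0.27 (1.72-fold, unadjusted p = 0.0256, and 0.0546 without the pairing). Trh, thyrotropin-releasing hormone, was also above the 6-OHDA range in samples 2 and 3 only, at 8.02, 8.09 and 8.06 against 7.84, 10.53 and 11.06. The 6-OHDA samples lay close together, DOPA/HFS 1 was slightly below them and the other two were far above, a mean difference of 1.75 ± 0.59 (3.37-fold, unadjusted p = 0.0241, and 0.0523 without the pairing). Without replicate 1, Trh differed by 2.72 (unadjusted p = 3.8e-05) and Pdyn by 1.09 (unadjusted p = 0.00789). Without replicate 2 the differences were 1.41 (unadjusted p = 0.0187) for Trh and 0.63 (unadjusted p = 0.117) for Pdyn. Without replicate 3 they were 1.13 (unadjusted p = 0.156) for Trh and 0.61 (unadjusted p = 0.111) for Pdyn. Crabp2, a retinoic acid carrier, was likewise above that range in samples 2 and 3 only, at 10.90, 11.12 and 11.01 against 11.05, 12.000 and 11.76 (difference 0.60, unadjusted p = 0.0436).

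The remaining markers of these neurons differed less. Of 8 direct pathway genes tested, Pdyn alone passed the level (12.5%, against 3.31% over all genes). Tac1, the substance P precursor, stood at 14.71, 14.67 and 15.12 against 15.12, 15.07 and 14.70, and Drd1, the D1 receptor, at 10.29, 10.71 and 10.70 against 10.94, 10.70 and 10.34, both with overlap. Ebf1, a transcription factor of direct pathway development, lay below the 6-OHDA range on all 3 arrays, at 10.002, 10.54 and 9.99 against 9.79, 9.35 and 9.55 (difference -0.62, unadjusted p = 0.0539). None of 7 indirect pathway genes and none of 20 genes shared by both pathways passed, with Drd2, the D2 receptor, at 11.54, 10.88 and 12.01 against 11.96, 11.16 and 11.46. The study named 20 genes for dyskinesia, a list made with these samples in view. Of these, Pdyn and Trh were the 2 higher at p under 0.05 and 0 were lower (10%, against 3.31% over all genes), with a median of 0.17.

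**Figure D3:**
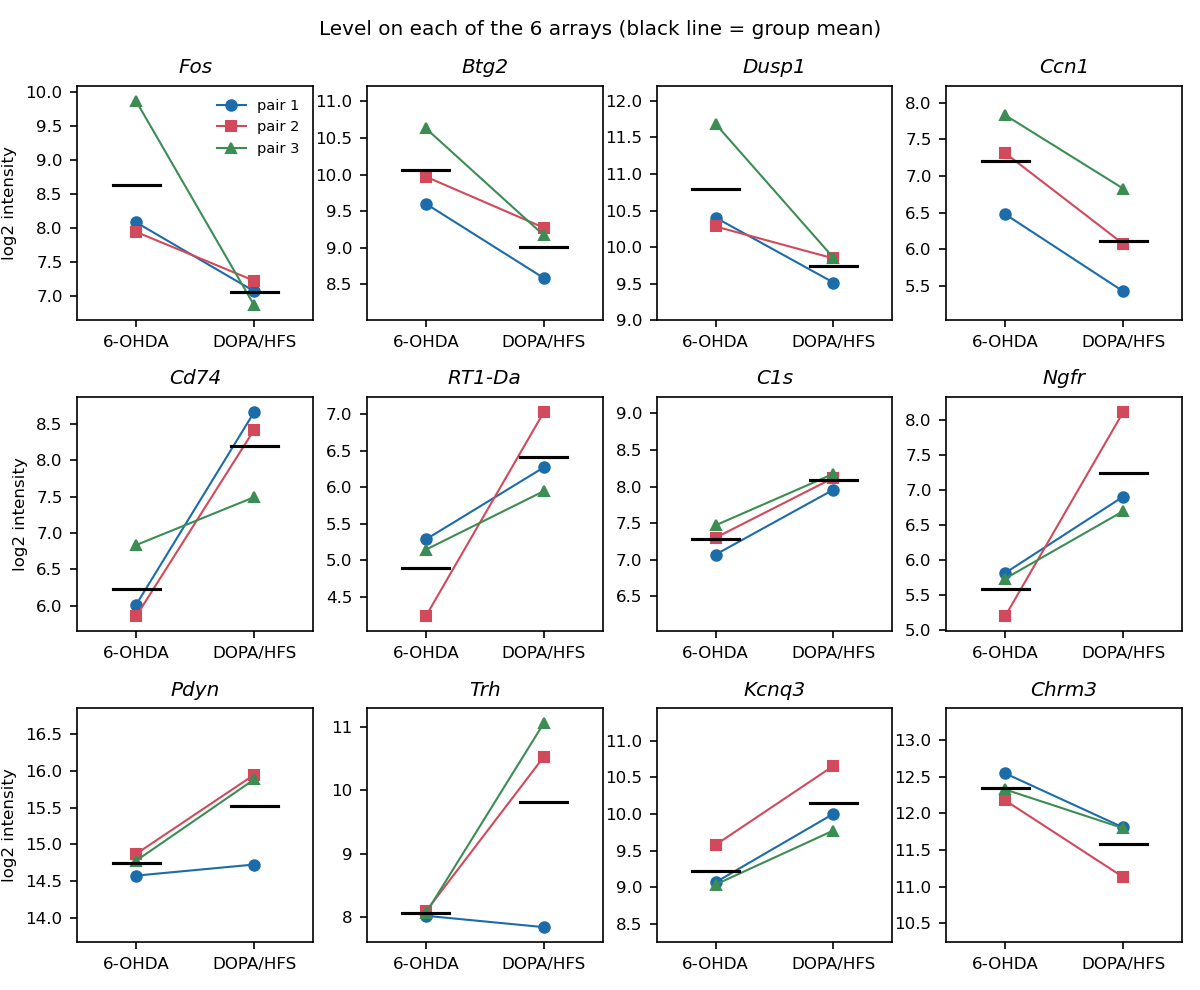
Log2 intensity (y axis) of 12 genes on each of the 6 arrays, 6-OHDA at left and DOPA/HFS at right, with lines joining samples of the same number and black bars for group means; the y axes differ in position. DOPA/HFS 1 lies at the 6-OHDA level for Pdyn and Trh, and the 6-OHDA 3 array is the highest for Fos, Btg2, Dusp1 and Ccn1.

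Receptors and channels that set the excitability of striatal neurons differed in single members. Chrm3, the M3 muscarinic acetylcholine receptor, stood at 12.55, 12.18 and 12.33 in 6-OHDA and at 11.81, 11.13 and 11.80 in DOPA/HFS. All DOPA/HFS arrays were below the 6-OHDA range, a difference of -0.77 ± 0.22 (1.71-fold lower, unadjusted p = 0.0112). Chrm3 was the 1 of 7 muscarinic and nicotinic receptor genes tested at p under 0.05 (14.3%, against 3.31% over all genes). Kcnq3, a subunit of the M-type potassium current that muscarinic receptors close, stood at 9.07, 9.58 and 9.04 against 10.002, 10.66 and 9.77, without overlap and with like steps in all pairs, a difference of 0.92 ± 0.21 (1.89-fold higher, unadjusted p = 0.004). Kcnt2, a sodium-activated potassium channel, was lower and dim, at 5.30, 5.79 and 5.84 against 4.92, 4.92 and 4.62 (difference -0.83, unadjusted p = 0.0136). These were 2 of 63 potassium channel genes tested (3.17%, against 3.31% over all genes). Kcnh4, a potassium channel of the forebrain, overlapped between groups (difference -0.20, unadjusted p = 0.368). Htr1b, a serotonin receptor on striatal terminals, was higher by 0.96 (unadjusted p = 0.0295), which was 0.49 without pair 2 (unadjusted p = 0.197).

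No member passed the level among 14 ionotropic and 7 metabotropic glutamate receptors, 13 GABA receptors, 10 dopamine and adrenergic receptors, 8 opioid and cannabinoid receptors and 33 sodium, calcium and HCN channels. The same held for 16 cyclic nucleotide phosphodiesterases, 14 RGS proteins, 35 calcium signalling kinases and phosphatases and 30 genes of synaptic vesicle release. The median differences of these lists lay between -0.08 and 0.09.

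Cholinergic interneurons pace the striatum with acetylcholine. Of 11 genes listed for them, 2 were higher and 1 lower at p under 0.05 (27.3%, against 3.31% over all genes). That share is of the list and not a measure of these cells. Ngfr, the low-affinity neurotrophin receptor p75, stood at 5.81, 5.19 and 5.73 against 6.90, 8.11 and 6.69. It was well above background on 2 of 3 6-OHDA arrays and 3 of 3 DOPA/HFS arrays. The groups did not overlap and DOPA/HFS 2 was far above the others. The difference was 1.66 ± 0.41 (3.16-fold higher, unadjusted p = 0.00632) and was 1.03 without pair 2 (unadjusted p = 0.0116). Gbx2, a homeobox gene of the interneuron lineage, was near background at 5.62, 4.005 and 5.72 against 5.74, 6.18 and 6.39 (difference 0.99, unadjusted p = 0.0478), and Zic4, a zinc finger gene, was lower in pairs 2 and 3 with a mean of -0.83 (unadjusted p = 0.0415). Both transporters that define these cells overlapped between groups. Slc18a3, the vesicular acetylcholine transporter, stood at 12.21, 12.39 and 12.42 against 12.08, 12.09 and 12.29, and Slc5a7, the choline transporter, at 10.49, 10.13 and 10.42 against 10.56, 10.18 and 10.30.

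Neurotrophins and the GDNF family support the survival of dopamine and striatal neurons. Of their 19 genes tested 4 were at p under 0.05, Ngfr higher and 3 lower (21.1%, against 3.31% over all genes). Ngfr is also counted in the cholinergic interneuron list. Bdnf, brain-derived neurotrophic factor, stood at 6.78, 5.94 and 5.08 against 5.99, 4.62 and 4.54. The groups overlapped and each pair was lower, by -0.79, -1.32 and -0.54, with a mean of -0.88 ± 0.24 (unadjusted p = 0.0093, and 0.137 without the pairing). Gdnf, the glial cell line-derived factor, had 2 pairs, at 11.44, 12.74 and 12.16 against 10.79 and 11.47, a mean of -0.96 (unadjusted p = 0.0221), and turned to 0.39 when the outlier spot of DOPA/HFS 3 was kept. Gfra1, its receptor, differed by -0.52 (unadjusted p = 0.0449, and 0.194 without the pairing) on its brightest probe, and by 0.21 in the mean of its probes, which disagreed.

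Among single genes, 66 higher (0.367%) and 114 lower genes (0.634% of those with a value on all 6 arrays) met the rule for naming. It asked for a value on all 6 arrays, p under 0.05, the same direction in all pairs and no overlap. It also asked for signal well above background on all 3 arrays of the brighter group. Galntl5, a glycosyltransferase-like protein known from testis, had the lowest p of all genes (1.08e-05, adjusted p = 0.216), at 3.68, 4.03 and 3.28 against 6.58, 6.49 and 6.15. None of its 6-OHDA arrays and all of its DOPA/HFS arrays were well above background, so its difference of 2.74 ± 0.21 stands as at least 2.56-fold higher, measured against the lowest signal well above background on each array. Casp8, the initiator caspase of death receptors, was likewise well above background in DOPA/HFS arrays only, at 4.26, 3.13 and 4.49 against 5.38, 4.93 and 6.13, at least 1.35-fold higher (unadjusted p = 0.000511). Unc5d, a netrin receptor, was at least 1.97-fold higher and the homeobox gene Rhox5 at least 1.8-fold higher by the same bound. Galntl5, Casp8, Unc5d and Rhox5 passed the filter on dim probes through DOPA/HFS arrays only. Their p values rest on 6-OHDA signal near background and are a description.

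Myo5c, a class V myosin of vesicle transport, stood at 5.84, 5.58 and 5.21 against 7.24, 7.03 and 7.75, well above background on 2 of 3 6-OHDA arrays, a difference of 1.80 ± 0.29 (unadjusted p = 0.00073). Lrg1, a glycoprotein of acute inflammation and vessels, stood at 7.21, 6.16 and 6.78 against 7.94, 8.52 and 8.02 (1.44 ± 0.34, unadjusted p = 0.00483). Tsga10, a sperm tail protein, was higher by 1.26 (unadjusted p = 0.0047), and Pafah2, an acetylhydrolase of platelet-activating factor, by 1.73 (unadjusted p = 0.0481), most of it from pair 2, where 6-OHDA 2 stood at 2.58. Igsf5, a junctional adhesion molecule, was higher by 1.13 (unadjusted p = 0.00243). Of the 15 higher genes with the largest differences, 9 had their lowest value on 6-OHDA 2. Calcr, the calcitonin receptor, overlapped between groups, at 5.88, 7.23 and 5.48 against 7.40, 9.30 and 6.98. It stepped up in each pair by 1.52, 2.07 and 1.49, a mean of 1.69 ± 0.23 (unadjusted p = 0.000248, and 0.0402 without the pairing).

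Of the 15 lower genes with the largest differences, 14 had no gene symbol and the 1 other was Fos. The transcript AI233983 stood at 9.13, 10.42 and 8.44 against 8.13, 5.20 and 4.68 (difference -3.33, unadjusted p = 0.00357). AI045430 was well above background on all 6-OHDA arrays and on no DOPA/HFS array, at least 2.83-fold lower (unadjusted p = 0.000105). Of these 15, 11 had their highest value on 6-OHDA 2. Lower genes with a symbol, 28 of the 114 and named after their values were seen, included Car4, a membrane carbonic anhydrase, at 11.83, 11.38 and 11.51 against 10.70, 10.47 and 10.73 (-0.94 ± 0.21, unadjusted p = 0.00363). They also included Xpr1, a phosphate exporter, at -0.997 (unadjusted p = 0.026), Mef2a, an activity-regulated transcription factor, at -0.77 (unadjusted p = 0.0214), and Lnpep, a peptidase that degrades oxytocin and vasopressin, at -0.74 (unadjusted p = 0.0148).

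The study chose 26 genes of the combined treatment on these same samples, so their count is not independent evidence of a direction. In the paired fit 5 were higher (Galntl5, Ngfr, RT1-Da, Tsga10 and C1s) and 4 lower (Btg2, Chrm3, Sirt5 and Tnnc2) at p under 0.05 (34.6%, against 3.31% over all genes), and of the 24 with a value on all 6 arrays 5 lay above and 10 below the 6-OHDA range past the fold limits. Sirt5, a mitochondrial desuccinylase, stood at 11.72, 12.53 and 11.61 against 10.65, 10.83 and 11.59. Pairs 1 and 2 were clearly lower and pair 3 did not move, for a mean of -0.93 ± 0.34 (unadjusted p = 0.0333). Tnnc2, a troponin, stood at 11.19, 11.23 and 10.72 against 9.34, 10.41 and 10.46, lowest on DOPA/HFS 1 (difference -0.98, unadjusted p = 0.0244). Aqp9, a water and glycerol channel, did not overlap at -0.65 (unadjusted p = 0.0506). Irf7, an interferon regulatory factor that the study lists as lower beside the higher C1s and RT1-Da, overlapped between groups. It differed by -0.31 (unadjusted p = 0.234), and pair 3 moved by 0.12. Prom1, a membrane glycoprotein of progenitor cells, differed by -0.36, Carhsp1, an RNA-binding protein, by -0.33, and Cox6c, a subunit of cytochrome c oxidase, by -0.30, all with unadjusted p above the level (0.129, 0.179 and 0.209). The urea transporters differed in sign: Slc14a1 was higher by 0.64 (unadjusted p = 0.031), and Slc14a2, at -0.39, missed the level (unadjusted p = 0.166).

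Housekeeping and stress programmes gave no member at that level. This held for 72 nuclear genes of the respiratory chain, 73 ribosomal proteins, 36 proteasome subunits, 57 heat shock proteins and cochaperones, 42 antioxidant enzymes, 16 clock genes and 11 reference genes, whose medians lay between -0.03 and 0.06. Hprt1, a reference gene, stood at 14.33, 14.79 and 14.36 against 14.33, 14.54 and 14.36. Extracellular matrix and adhesion were alike in this, with 0 of 23 collagens and 0 of 21 integrins, laminins and syndecans. In axon guidance 1 of 51 genes passed (Unc5d, higher, 1.96%) and in Wnt and BMP signalling 1 of 31 (3.23%). Neither share was above the 3.31% over all genes. The Wnt and BMP gene was Sostdc1, a secreted BMP antagonist, higher by 0.69 (unadjusted p = 0.0217). Of 18 oligodendrocyte genes 1 passed and was higher (5.56%, against 3.31% over all genes), the myelin protein Mbp. It differed on 2 pairs by 0.75 (unadjusted p = 0.0352), with a value of -0.01 in the mean of its probes.

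**Figure D4:**
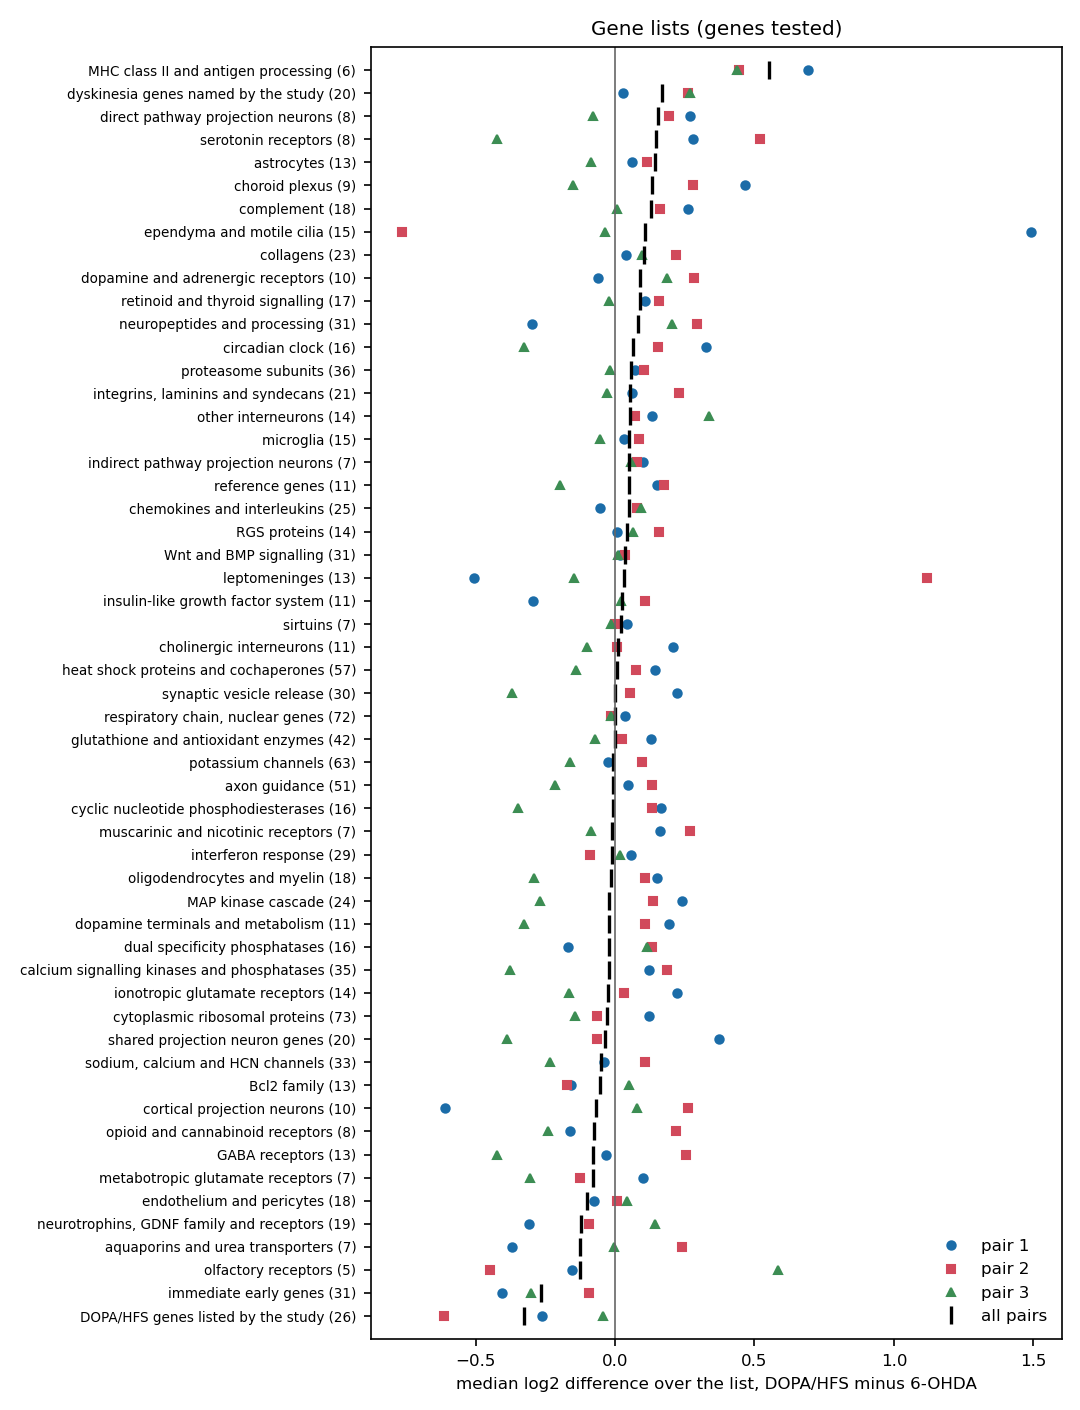
Median log2 difference DOPA/HFS minus 6-OHDA over each gene list (x axis; number of genes tested in parentheses) for each pair of samples in colour and over all pairs as a black tick. The immediate early genes and the genes chosen by the study lie lowest, at -0.27 and -0.33, MHC class II highest, at 0.55, and most other lists change sign between pairs.

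Markers of the cells that border the striatum varied between arrays of both groups. The motile cilia genes of the ependyma, the lining of the ventricle, had pair medians of 1.49, -0.76 and -0.04, and their summed intensity ran from 4130 to 16400 in 6-OHDA and from 7020 to 11900 in DOPA/HFS. Foxj1, their master regulator, stood at 10.45, 12.63 and 11.56 against 12.001, 11.25 and 11.72. Of 15 tested, Tsga10 was the 1 at p under 0.05 (6.67%, against 3.31% over all genes). The leptomeningeal list had pair medians of -0.51, 1.12 and -0.15, with sums of 13100 to 16200 against 10000 to 20100, highest on DOPA/HFS 2, and 0 of 13 genes passed. The choroid plexus gene Ttr ran from 2.84 to 9.27 over the DOPA/HFS arrays. Of 9 genes of that list 1, Sostdc1, passed (11.1%, against 3.31% over all genes). Cortical projection neuron markers had sums of 8850 to 10600 against 9260 to 11100, and 0 of 10 passed. Microglial markers summed to 62100 to 70000 against 63700 to 71000, and astrocyte markers to 241000 to 249000 against 237000 to 268000, so neither sum separated the groups. The leptomeningeal excess on DOPA/HFS 2 lay on the same array as the highest values of RT1-Da and Ngfr, while Cd74 was highest on DOPA/HFS 1, where that list was lowest. The part of these cell types in the differences above was not tested.

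**Figure D5:**
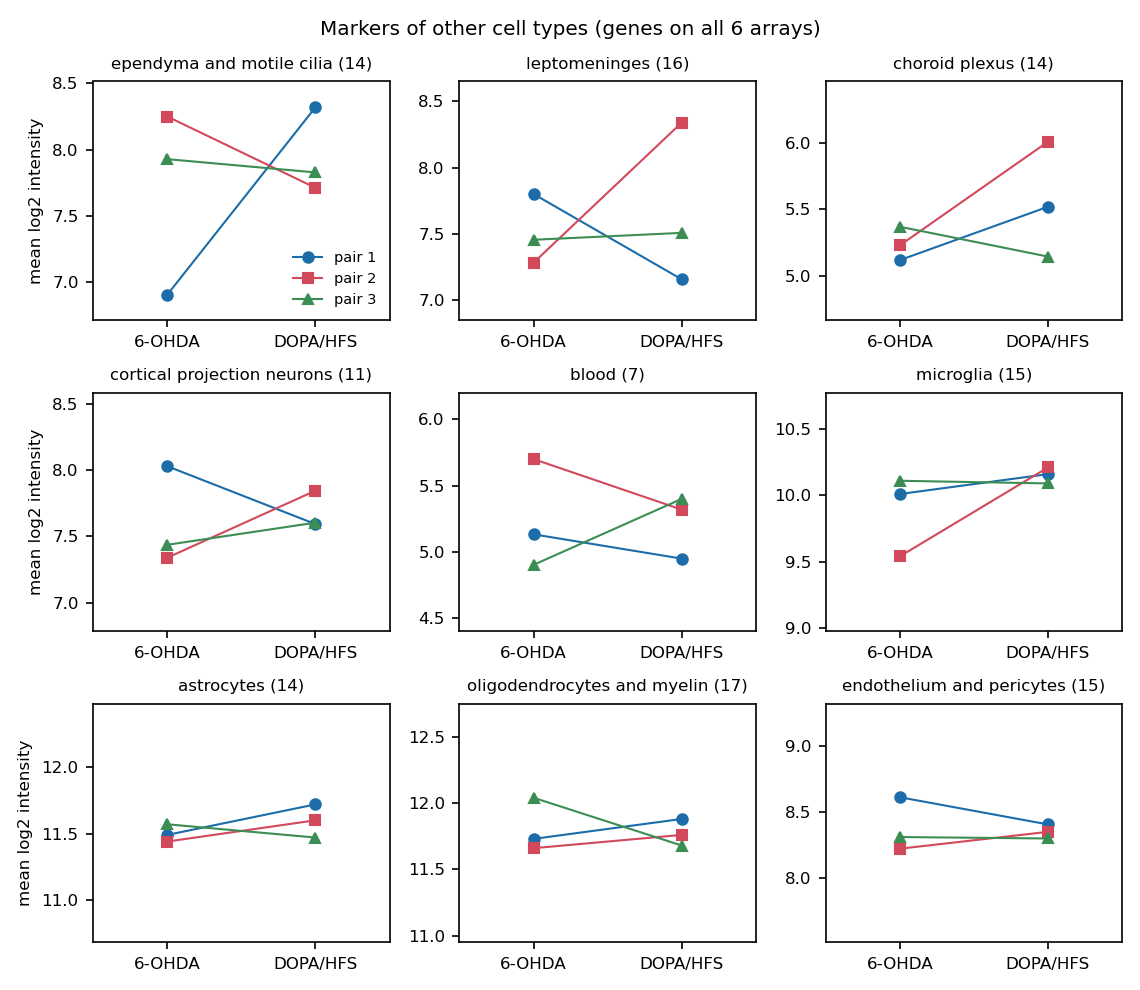
Mean log2 intensity (y axis) of marker genes of 9 other cell types on each array, 6-OHDA at left and DOPA/HFS at right, with lines joining samples of the same number and the number of genes in parentheses. Ependymal markers spread from 6.91 to 8.32 and leptomeningeal markers from 7.16 to 8.34, wider than those of astrocytes, from 11.44 to 11.72.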

How the data were processed

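Total RNA of dorsal striatum was labelled with Cy3 (0.5 µg per the labels) and scanned on 1-colour arrays. The deposited scanner files hold, per the file headers, background-subtracted intensity (gProcessedSignal) from Agilent Feature Extraction 9.1, and the deposited series table holds log2 values normalised by the authors, whose scale and centring are not stated and whose column medians were all 7.208. Log2 intensity of the 43379 non-control spots of the 6 arrays, without spots marked as outliers, was quantile normalised in R 4.3.3 with limma 3.58.1. Spots of a probe were averaged, a gene took its brightest probe, and genes well above background on at least 40% of arrays were kept. Of 41012 probes 10735 were named by accession and 9300 by symbol or synonym through RefSeq tables, and 20977 kept the file's name.

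A paired limma model (sample number as block, eBayes with 4.19 prior degrees of freedom) was fitted over all 19948 genes, with Benjamini-Hochberg adjustment. The headers put samples of 1 number on 1 slide, each group always at the same place, so slide position and treatment cannot be told apart. Deviations of same-numbered samples correlated at -0.0699, 0.344 and -0.146. Those of samples with unlike numbers ran from -0.446 to 0.544, so a shared number did not go with a closer likeness. The standard errors and p values of the paired fit rest on this pairing of different rats. The threshold was chosen here: the methods' unpaired SAM test with its own false discovery rate, and the Wilcoxon test after it, were not run. On simulated data of 17990 genes with 200 changed, 81.8% of changes of 2 log2 units were called and 0% of those of 1 log2 unit. The simulation had independent normal noise, an effect shared within each pair and no array that stood apart. Its shares are therefore neither the power of the real arrays nor the share of genes that would pass there under no change. Genes to name were taken from the lists and, by size, 15 in each direction among those with p under 0.05, no overlap and the same direction in all pairs. They also had signal well above background on all arrays of the brighter group. The members and gene lists were chosen with earlier results of these data known. Alternatives covered the block, scaling, background correction, filters, probe summary, thresholds and left-out samples. The number of arrays limits the precision.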

Additional observations from a re-analysis of the deposited data

How the results depend on the processing

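Signal near background limits Galntl5, Casp8, RT1-Da and Th. The count of 0 called genes became 1 (Galntl5) where probes had to be well above background on all 3 arrays of a group. Galntl5 met this in DOPA/HFS only. The count ranged from 0 to 3 with 1 replicate left out: AI233983, Spp1 and Tnfsf9 without replicate 1, and BQ783165, Galntl5 and Il2rg without replicate 2. Without the replicate block there were 85 higher and 213 lower genes at an unadjusted p under 0.05, against 168 and 493, with 0 called.

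Higher genes at that level numbered 31 in the deposited table, 446 without the filter on dim probes, and 198 to 548 with 1 replicate left out, and lower genes 919 without that filter and 170 to 1134. Settings added after seeing the data, with no block, gave 109 higher and 197 lower genes without DOPA/HFS replicate 3, 193 lower without DOPA/HFS replicate 1, and 158 lower without 6-OHDA replicate 2. Genes whose groups do not overlap numbered 485, 1003 without the dim filter, 791 with outlier spots kept, 1772 to 4305 with 1 replicate left out (fewer arrays overlap less), and 1175, 1525 and 777 without DOPA/HFS 1, DOPA/HFS 3 and 6-OHDA 2. Lower immediate early genes were 6 to 12 of the list in all planned settings, 6 to 7 with 1 replicate left out, and 3, 4 and 3 in the added settings. Complement genes were 0 in the deposited table and with outlier spots kept, and 1 to 6 with 1 replicate left out. The median of the immediate early genes stayed below 0 in all 17 settings, from -0.36 to -0.14, and that of MHC class II above 0, from 0.29 to 1.36.

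Differences near 0 changed sign. Penk was -0.0754 with 75th percentile scaling, -0.0846 with normexp, -0.0580 in the deposited table, -0.0249 over all probes, -0.143 to 0.176 with 1 replicate left out, and -0.133 and -0.195 with no block without DOPA/HFS 3 and without 6-OHDA 2. With 1 replicate left out, Tac1 ran from -0.0146 to 0.403, Drd1 from -0.186 to 0.317 and Drd2 from -0.135 to 0.352. Drd1 was -0.0513 in the deposited table, -0.0532 with outlier spots kept and -0.0498 with no block without DOPA/HFS 1, and Drd2 -0.0647, -0.0485 and -0.166, and -0.248 without 6-OHDA 2. Gdnf was 0.386 with outlier spots kept, Gfra1 0.209 and Mbp -0.00944 over all probes, and Hprt1 0.0622 with no block without 6-OHDA 2. The cause was not tested.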
